A study of Mus musculus with 48 samples.

Results

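Integrins and cadherins are the receptors by which pancreatic cells hold to the matrix and to each other, and 49 of the 18194 genes with at least 1 probe set that names no other gene belonged to the families by symbol (Itga, Itgb followed by a digit, or Cdh followed only by digits). Each gene was read from its brightest probe, the one with the highest mean over the 48 arrays, and 43 of the 49 exceeded 100 on the linear scale (log2 6.64) in at least 1 array and were tested. Cdh10, Cdh17, Cdh18, Cdh20, Cdh23 and Itgam never exceeded it and were not tested. A tested gene may have passed through a single population, so the 43 are not an even sample of the 49. The symbols Itgb1bp1, Itgb1bp2 and Itgb3bp also match, but they name proteins that bind integrin beta chains and not integrins themselves, and Itgb2l names a gene related to Itgb2.

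The study profiled sorted mouse pancreatic cells, strain CD-1, on Affymetrix arrays to follow the path from progenitors to acinar, duct, alpha and beta cells, with 3 to 5 arrays per population. Sox9+ progenitors came from E11.5 dorsal pancreas of embryos with a Sox9-eGFP BAC transgene (n = 4). At E15.5, progenitors (n = 3), acinar cells (n = 3) and endocrine progenitors (n = 3) were separated from Neurog3-eGFP transgenic pancreas by eGFP and the surface antigens CD133, CD24 and CD49f. Beta cells carried MIP-GFP, a reporter under the mouse insulin promoter, at E15.5 (n = 4), E17.5 (n = 3), P0 (n = 3), P15 (n = 4) and in adult male mice of 8 to 12 weeks (n = 4). Alpha cells carried Glucagon-Venus at P0 (n = 4) and in adults (n = 5), and adult duct cells (n = 4) were sorted with an antibody to CD133. These 12 populations were labelled wild type, reporters aside. The E15.5 Neurog3-null cells (n = 4) came from Neurog3 eGFP/eGFP knock-in embryos, so their reporter differed from that of the endocrine progenitors as well as their genotype. Each array was made from pooled animals, eGFP outlasts the gene that drives it, and CD49f is the protein of Itga6, so that gate and population cannot be told apart for Itga6 among the E15.5 sorts, and its values there are given as levels only.

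Cadherins are calcium-dependent adhesion proteins that bind cadherins on the next cell and reach the actin cytoskeleton through catenins. Cdh1 (E-cadherin) marks epithelia, and Cdh2 (N-cadherin) is the neural and endocrine counterpart. Integrins are pairs of 1 alpha and 1 beta chain. Itgb1 pairs with most alpha chains to bind laminin, collagen or fibronectin, Itgb4 pairs with Itga6 in hemidesmosomes, Itgav pairs with several beta chains, and Itgb2 and Itgb7 pair with alpha chains of leukocytes. In the islet, Cdh1 and Cdh2 hold endocrine cells together and beta cells contact the laminin of the vascular basement membrane.

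Values were the log2 expression values that the authors made by RMA, and array medians lay between 6.58 and 6.88. A difference was called with limma at an adjusted p under 0.05 and a log2 difference of at least 1, over 32078 probes, in 1 fit of 13 population means. The brightness of a probe depends on its sequence, so levels of different genes were not compared. The arrays show an average over all sorted cells, and fewer cells of a type cannot be told apart from less RNA per cell. Several populations held markers of cells other than the one named. Averaged over 17 markers of macrophages and other leukocytes, expression reached 11.53 ± 0.40 in E15.5 Neurog3-null cells, 11.52 ± 0.35 in adult beta cells and 11.74 ± 0.57 in adult duct cells (SD), against 5.40 ± 0.15 in E11.5 progenitors, although the sorts excluded cells with CD45. The means of 12 endothelial and 12 mesenchyme markers were highest in P0 beta cells, at 11.13 ± 0.16 and 12.66 ± 0.09. The hormone probes did not separate alpha from beta cells. Gcg was 14.09 in adult beta and 14.48 in adult alpha cells, and Ins2 was 14.65 in adult beta and 13.91 in adult alpha cells. The study treats these probes as open to saturation, so they were not read as a sign of other cells. Neurog3 itself measured 10.97, 10.29, 10.70 and 10.32 in the 4 Neurog3-null arrays, against 13.34, 13.41 and 13.44 in the 3 endocrine progenitor arrays, so it was lower but not at the bottom of its range in the nulls.

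**Figure D1:**
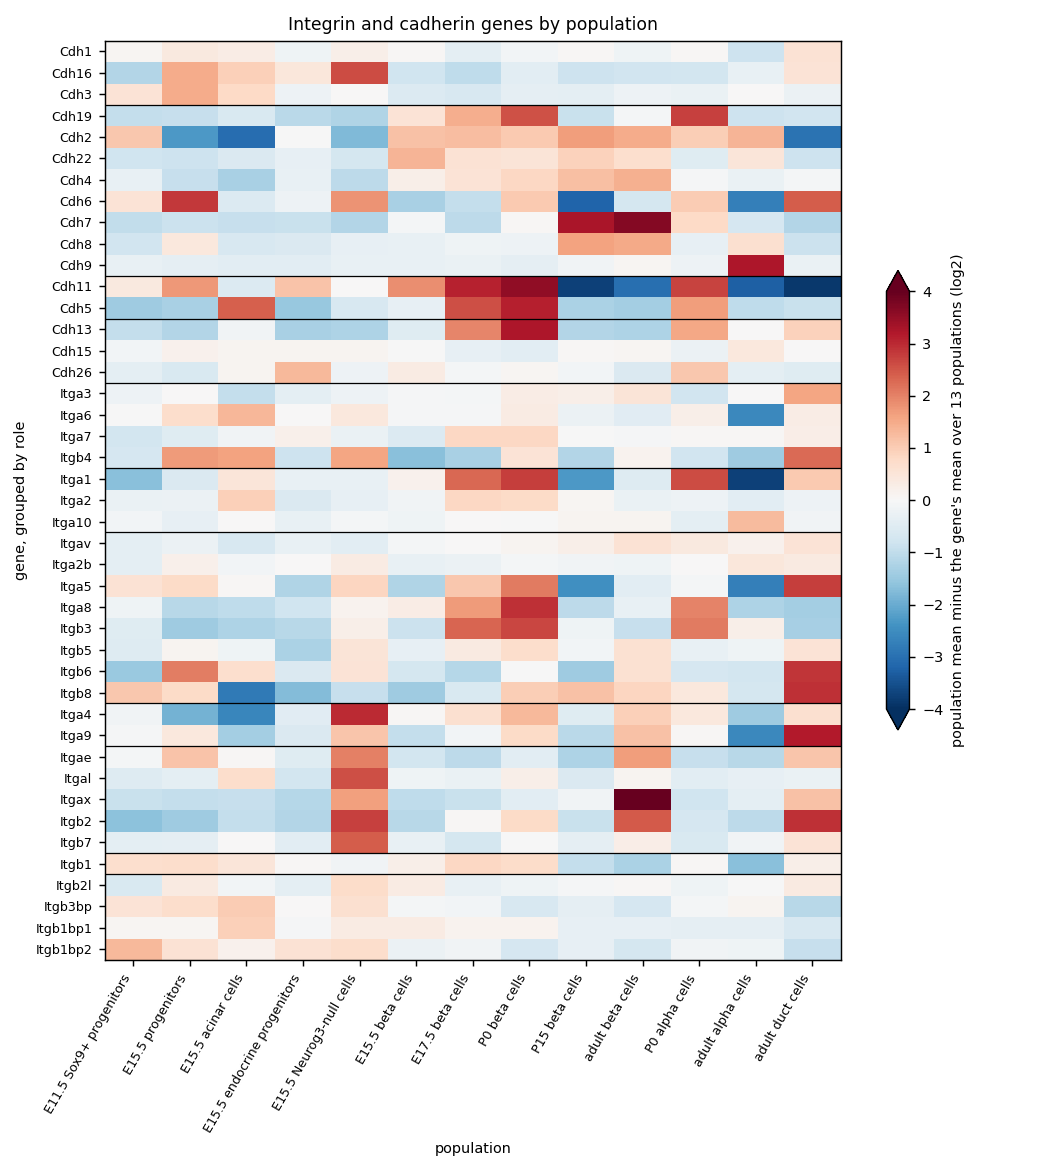
Mean log2 expression of the 43 tested genes in each of the 13 populations, minus the gene's mean over the 13, with genes grouped by role and separated by lines (the bottom group holds Itgb2l and the binding proteins). Red is higher and blue lower than the gene's own mean, and colours end at 4 on either side. Cdh11 has the widest range of population means, 7.44, and Cdh15 and Itga2b the narrowest of the tested genes, 0.85 each.

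Between 17 (E15.5 beta cells) and 26 (P0 beta cells) of the 49 genes had a population mean above 100. Cdh1, Cdh2, Cdh15, Itga3, Itga5, Itga6, Itgav, Itgb1, Itgb3bp, Itgb1bp1 and Itgb5 did so in all 13 populations. The widest ranges after Cdh11 belonged to Itga1 (6.48), Cdh6 (6.03), Itgax (5.92), Itga9 (5.75), Itgb8 (5.72), Itga4 (5.59), Itga5 (5.50), Cdh7 (4.86), Cdh2 (4.74), Cdh5 (4.65) and Cdh13 (4.55). Of the tested genes Cdh1, Cdh15 (M-cadherin, of muscle), Itga2b (the platelet alpha chain), Itgav and Itgb1bp1 were called in none of the 16 comparisons. Itgav, the partner of Itgb3, Itgb5, Itgb6 and Itgb8, had means between 12.09 in E15.5 acinar cells and 13.30 in adult beta cells.

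Cdh1 was bright in every sorted population, with population means between 12.20 and 13.61, a range of 1.40. It was highest in adult duct cells (13.67, 13.65, 13.53 and 13.58) and lowest in adult alpha cells (12.58, 12.05, 12.16, 12.09 and 12.14), and these arrays did not overlap. Between these ends the populations followed each other in small steps. Of the 12 steps from one population to the next, only the last, from E17.5 beta cells at 12.66 to adult alpha cells, passed the adjusted p threshold (step 0.45, adjusted p = 0.000816), and it was under the 2-fold minimum. The populations were ordered by the same means, so small steps follow in part from that order. Populations further apart differed, as duct from adult beta cells (0.73, adjusted p = 3.91e-07), also under the minimum. Over the 13 means Trdmt1, Crb3 (an apical polarity protein), Gprin3, Ezr (ezrin, of apical microvilli) and Ugp2 followed Cdh1 most closely, with Pearson r between 0.87 and 0.91 among 14404 other genes.

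Cdh2 instead had a set of high populations, with the others spread below it. All 5 beta cell stages, both alpha cell stages and the E11.5 progenitors had means between 11.16 and 11.85. No step between neighbours in that set passed the threshold, but small steps follow in part from ordering populations by the same means. Members of the set further apart did differ, as P15 from P0 beta cells (0.62, adjusted p = 0.0412), under the 2-fold minimum. Endocrine progenitors measured 10.60, 10.25 and 9.62. They lay below P0 alpha cells, the next population above them (step 1.00, adjusted p = 0.00146), and above Neurog3-null cells, the next below (step 1.76, adjusted p = 3.05e-07). E15.5 progenitors (7.87 ± 0.19), adult duct cells (7.21 ± 0.77) and E15.5 acinar cells (7.11 ± 0.60) were lowest. The mean of 7 endocrine marker genes was 11.20 already in E11.5 progenitors and between 5.71 and 6.83 in the E15.5 acinar cells, Neurog3-null cells, adult duct cells and E15.5 progenitors. Cdh2 correlated with that list at r = 0.96 over the 13 means, as a description. Its closest genes were Scrn1 (secernin, of secretion), Gdap1, Scg5 (a granin-like chaperone of prohormone convertase), Magee1 and Cltrn (collectrin, of beta cells), at r between 0.98 and 0.99. Between Cdh1 and Cdh2 r was -0.72.

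**Figure D2:**
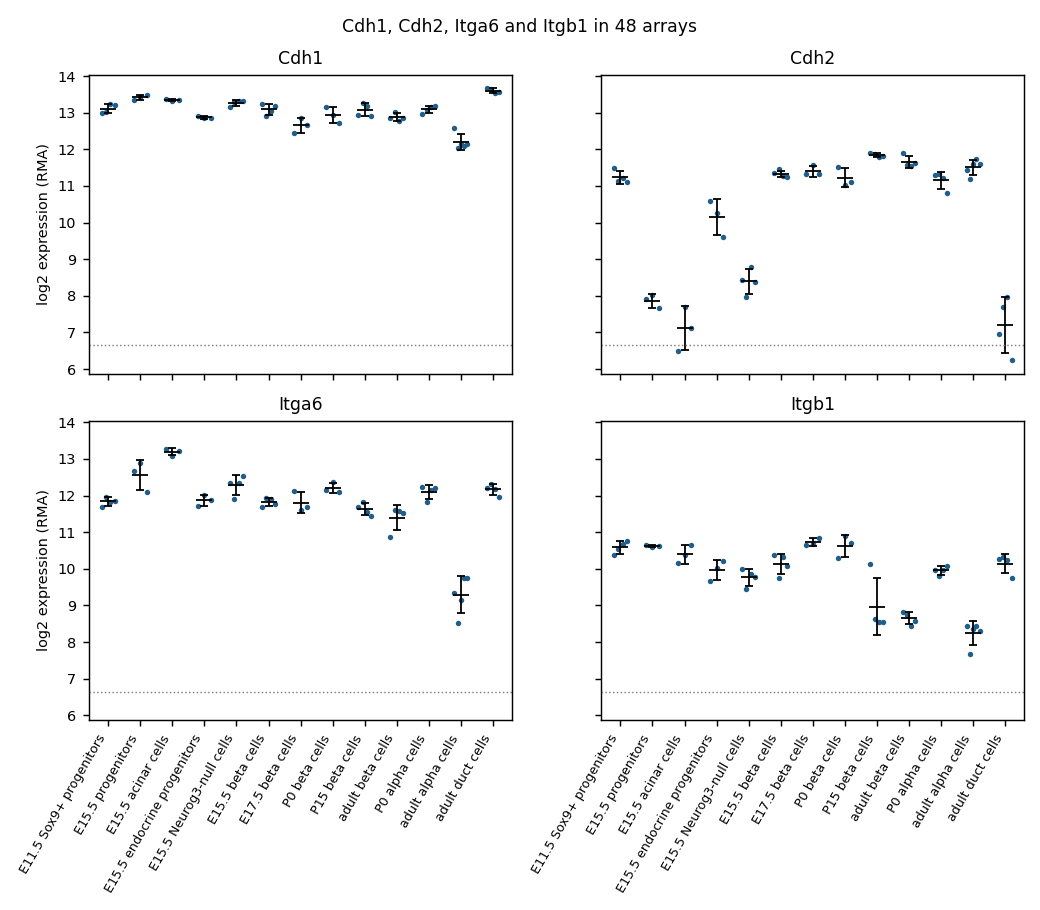
Log2 expression of Cdh1, Cdh2, Itga6 and Itgb1 in each of the 48 arrays (points), by population, with the mean and SD (black) and a dotted line at 100 on the linear scale. Cdh2 is above 9 in the endocrine populations and E11.5 progenitors and has means near 7 in acinar and duct cells. Neurog3-null cells and E15.5 progenitors have Cdh2 means between these. Itga6 and Itgb1 are lowest in adult alpha cells.

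Catenins tie cadherins to actin. Of 11 catenins and related partners 10 were tested, and between 0 and 5 were called in any 1 comparison. The share called over all genes ran from 6.01% to 34.7% between comparisons. Ctnnd2 and Ctnna2, the neural delta and alpha catenins, were low in E15.5 progenitors and acinar cells, as Cdh2 was. Ctnnd2 measured 5.81 ± 0.15 in E15.5 progenitors and 9.64 ± 0.26 in E11.5 progenitors (difference -3.83, standard error 0.34, adjusted p = 7.99e-12). In adult duct cells, where Cdh2 was low, Ctnnd2 was 10.67 ± 0.24. Ctnna2 was 4.88 in duct cells and 6.66 in adult beta cells (difference -1.78, standard error 0.32, adjusted p = 7.75e-06).

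Between E11.5 and E15.5, progenitors fell in Cdh2 and Itga4 and rose in Itgb6, Itgb4, Cdh16 and Cdh6. Of the 43 genes 7 were higher and 2 lower in E15.5 progenitors, 20.9% against a background of 13.6% of genes (6.25% higher and 7.30% lower), counted over all 14405. Cdh2 measured 7.90, 8.03 and 7.66 in E15.5 progenitors, against 11.49, 11.14, 11.22 and 11.11 at E11.5, with no overlap (difference -3.37, standard error 0.26, adjusted p = 1.6e-13). Itga4, an alpha chain that binds fibronectin and VCAM1, fell by 1.75 on the log2 scale (adjusted p = 4.37e-05). Itgb6, the epithelial partner of Itgav that activates TGF-beta, was 7.24, 7.08 and 8.03 at E15.5, against 4.02, 3.66, 3.70 and 4.28 at E11.5 (difference 3.54, standard error 0.28, adjusted p = 3e-13). Every E15.5 array exceeded every E11.5 array, and the E11.5 arrays were far below 100, where the size of a difference is not exact. Cdh16 (kidney-specific cadherin, of tubular epithelia) rose by 2.64, Itgb4 by 2.39, Cdh6 by 2.30 and Cdh11 by 1.36, and Itgae and Cdh8 rose by 1.21 and 1.19. The call of Cdh11 was lost without E15.5 progenitor replicate 1 (adjusted p = 0.0558) and without replicate 3 (adjusted p = 0.0517). Cdh1 and Itgb1 were not called (differences 0.31 and 0.04). The mean of the endocrine markers, given above with Cdh2, was lower at E15.5 than at E11.5. Of the acinar markers 7 of 11 and of the duct markers 4 of 6 were called higher at E15.5. The part of these lists was not tested.

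The same E15.5 progenitors were set against both other E15.5 sorts, so the next 2 comparisons share arrays and are given side by side. Acinar cells had 3 genes higher and 7 lower, 23.3% against a background of 11.7% of genes (4.63% higher and 7.06% lower). Itgb8, another partner of Itgav in TGF-beta activation, measured 4.53, 4.36 and 4.13 in acinar cells and 7.79, 7.38 and 8.61 in progenitors, and the arrays did not overlap (difference -3.59, standard error 0.37, adjusted p = 1.32e-09). Cdh6 was also lower, by -3.36, with Cdh11 at -2.29, Itga9 (a receptor for tenascin and VCAM1) at -1.79, Itgb6 at -1.36, Itgae at -1.09 and Cdh8 at -1.08. Cdh5, the cadherin of endothelial junctions, was 7.22, 7.66 and 8.04 in acinar cells, against 3.96, 4.08 and 3.88 in progenitors (difference 3.67, standard error 0.34, adjusted p = 1.16e-10). All 12 endothelial markers were called higher there too, with a list mean of 9.29 ± 0.59 against 5.46 ± 0.25 in progenitors, and their part in the Cdh5 result was not tested. Itga2, a collagen receptor, and Itgal were higher by 1.19 and 1.09. The calls of Itgal, Cdh8 and Itgae depended on single arrays and were lost without progenitor replicate 3, Itgal and Itgae also without acinar replicate 3, and Cdh8 also without acinar replicate 2.

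In endocrine progenitors 3 genes were higher and 10 lower than in E15.5 progenitors, 30.2% against a background of 22.5% of genes (10.7% higher and 11.8% lower). The 10 included the integrin chains Itgb6 (-2.61), Itgb4 (-2.52), Itgb8 (-2.52), Itga5 (the fibronectin receptor, -1.95) and Itgb5 (-1.38). They also included Cdh6 (-3.03), Cdh3 (P-cadherin, -1.70), Itgae (-1.63), Cdh16 (-1.03) and Cdh8 (-1.00). Itgb4 measured 6.66, 6.87 and 7.27 in endocrine progenitors and 9.45, 9.30 and 9.62 in progenitors (difference -2.52, standard error 0.27, adjusted p = 5.9e-10). The endocrine progenitor arrays were all lower. Cdh2 was higher by 2.29 (adjusted p = 9.44e-09), Itga4 by 1.45, and Cdh26 by 1.90. Cdh26 reached 6.39, 7.25 and 6.91 in endocrine progenitors, against 4.92, 5.00 and 4.92 in progenitors. Its mean of 6.85 there was little above the 6.64 of P0 alpha cells. Cdh1 was lower by -0.55 (adjusted p = 0.000616), which is under the 2-fold minimum. Cdh16 lost its call without progenitor replicate 3 or endocrine progenitor replicate 1 or 2, and Cdh8 without any of these or without progenitor replicate 1. Of the mesenchyme markers 7 of 12 were called higher in endocrine progenitors, and of the duct markers 1 higher and 3 lower, and their part was not tested. Itga6 was 13.20 ± 0.10 in acinar cells, 11.87 ± 0.15 in endocrine progenitors and 12.56 ± 0.41 in progenitors.

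E15.5 Neurog3-null cells differed from endocrine progenitors in 18 genes, 15 higher and 3 lower, 41.9% against a background of 32.9% of genes (18.7% higher and 14.2% lower). The 3 that were lower were Cdh2 (-1.76), Cdh26 (-1.48) and Cdh11 (-1.13). Cdh2 measured 8.43, 7.98, 8.80 and 8.38 in null cells and 10.60, 10.25 and 9.62 in endocrine progenitors, without overlap (adjusted p = 3.05e-07). Itgb4 was 8.80, 10.08, 9.30 and 9.09 in null cells, against 6.66, 6.87 and 7.27 in endocrine progenitors (difference 2.38, standard error 0.25, adjusted p = 2.56e-10). Cdh16, Itga5, Cdh6, Itgb5 and Itgb6 were higher by 2.18, 2.04, 2.00, 1.80 and 1.12, and Itga9 and Itgb3 by 1.67 and 1.35. The mean of 6 duct markers was 10.89 in null cells and 9.86 in endocrine progenitors, with 3 called higher and 1 lower. Of 12 endothelial markers 8 were called higher and of 11 acinar markers 9, and the part of these lists was not tested.

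All 5 tested leukocyte integrins were higher in null cells. Itgb2, the beta chain of leukocyte integrins, was 8.53, 8.47, 7.54 and 8.50 in null cells and 4.38, 4.37 and 4.27 in endocrine progenitors (difference 3.92, standard error 0.39, adjusted p = 6.05e-11). Itgal, the alpha chain of LFA-1, was 9.70, 8.41, 8.04 and 9.43 in null cells and 5.55, 5.42 and 5.80 in endocrine progenitors (difference 3.31, standard error 0.25, adjusted p = 4.9e-14). No null array overlapped for either gene. Itgb7 was higher by 2.83, Itgax (CD11c) by 2.76 and Itgae (CD103, the integrin that binds Cdh1) by 2.51. Itga4, the partner of Itgb7, reached 11.72, 11.23, 11.48 and 12.11 in null cells, against 8.35, 8.04 and 8.22 in endocrine progenitors (difference 3.43, standard error 0.32, adjusted p = 1e-11). The 17 leukocyte markers were all called higher as well, with array means of 11.08 to 12.04 in null cells against 5.93 to 6.08 in endocrine progenitors. Fermt3, the kindlin that blood cells use to activate integrins, was 11.11 in null cells and 7.56 in endocrine progenitors. The part of these markers in the result was not tested. The calls of Cdh11 (without endocrine progenitor replicate 2 or 3), Itgb6 (without endocrine progenitor replicate 1) and Itgb2l (1.11, without null replicate 2) each depended on single arrays.

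Leukocyte integrins did not have 1 order across the populations that held leukocyte markers. E15.5 Neurog3-null cells, adult beta cells and adult duct cells had nearly the same level of the 17 markers and of Itgb2 (8.26, 7.98 and 8.44), and neighbouring steps among them were 0.18 (adjusted p = 0.694) and 0.28 (adjusted p = 0.52). Itgax measured 10.65, 9.75, 10.27 and 9.80 in adult beta cells. It was 6.41, 7.40, 6.51 and 7.51 in null cells, the next population (step 3.16, adjusted p = 2.02e-12), and 6.97, 6.51, 6.29 and 6.20 in duct cells. Itgal and Itgb7 were highest in null cells instead. The next population for Itgal was E15.5 acinar cells at 7.02 (step 1.88, adjusted p = 1.12e-07), and for Itgb7 adult duct cells at 6.81 (step 1.88, adjusted p = 2.84e-10). Itga4 was also highest in null cells, 1.69 above P0 beta cells (adjusted p = 2.32e-05). Itgam, the alpha chain of Mac-1, stayed between 3.41 and 4.18 in every population, so this probe gave no signal above 100 in the same 3 populations. Over the 13 means the leukocyte list correlated with Itgb2 at r = 0.97, with Itga4 at 0.80, with Itgax at 0.75 and with Itgal at 0.50, as a description.

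**Figure D3:**
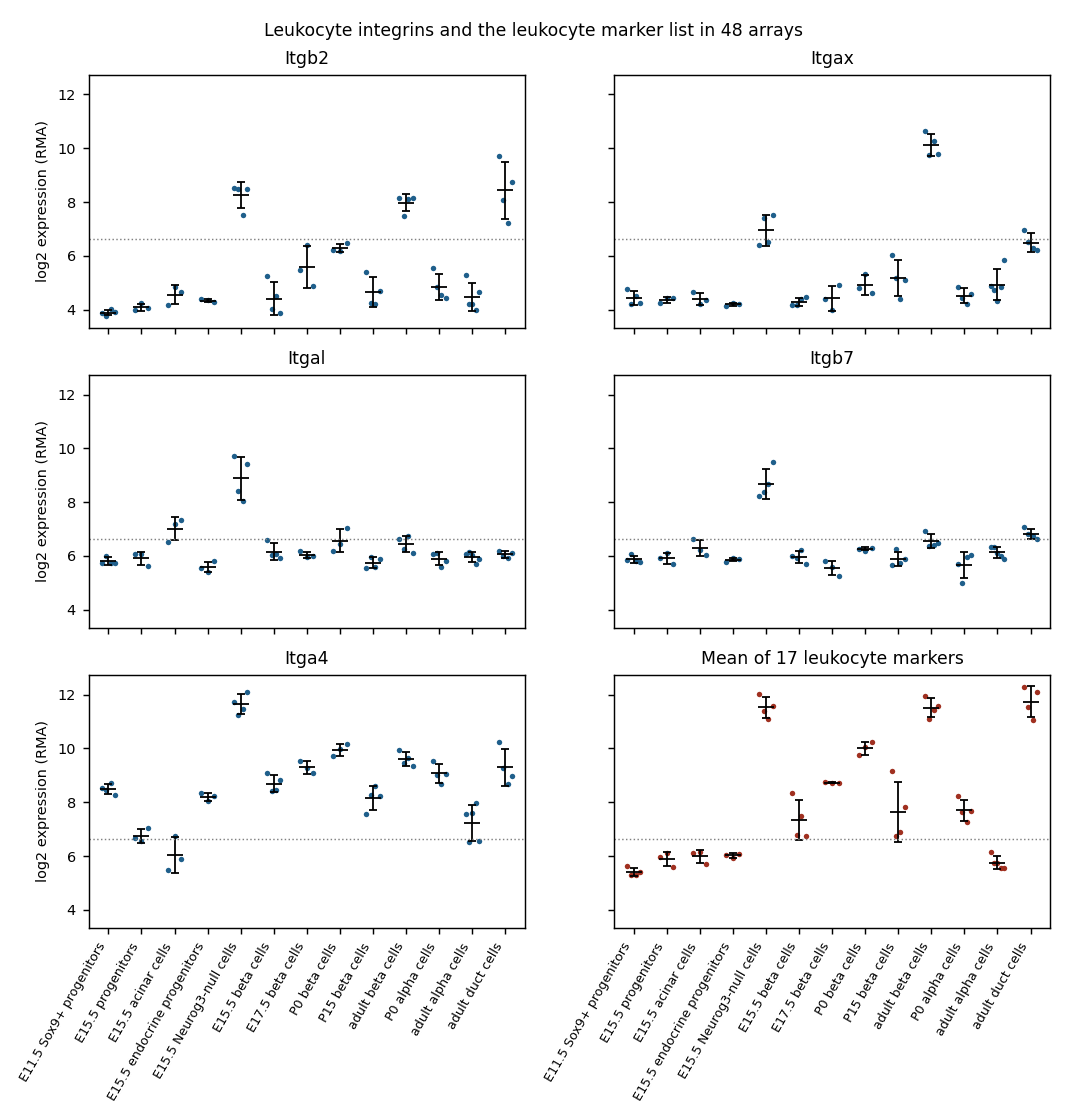
Log2 expression of Itgb2, Itgax, Itgal, Itgb7 and Itga4 and the mean of 17 leukocyte markers in each of the 48 arrays (points), with the mean and SD (black) and a dotted line at 100 on the linear scale. Null, adult beta and adult duct cells share the top of the marker panel and of Itgb2, Itgax stands highest in adult beta cells (mean 10.12), and Itgal and Itgb7 in null cells (8.90 and 8.69).

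E15.5 beta cells and endocrine progenitors differed in 6 genes, 4 higher and 2 lower, 14.0% against a background of 11.3% of genes (6.69% higher and 4.57% lower). The count was 3 with the replicate block and 3 with the methods' t-test. Cdh22, a cadherin first described in pituitary and brain, was 7.98, 8.03, 8.07 and 8.03 in beta cells and 6.30, 6.46 and 6.25 in endocrine progenitors, without overlap (difference 1.69, standard error 0.25, adjusted p = 1.78e-06). Cdh22 had its highest mean of all 13 populations there, though the step to the next, P15 beta cells, missed the threshold (0.44, adjusted p = 0.123). Cdh19, of Schwann cell precursors, was higher by 1.62, Cdh5 by 1.22 and Cdh2 by 1.18. The means of Cdh19 and Cdh5 were below 100 in both populations (5.66 and 4.94 in beta cells), so the sizes of their differences are not exact. Cdh16 and Cdh6 were lower by -1.23 and -1.10. Without endocrine progenitor replicate 3 the difference of Cdh2 was 0.91 and that of Cdh6 -0.67, and neither was called. The endothelial list was 6.68 in beta cells and 5.18 in endocrine progenitors, with 9 of 12 markers called higher. Of the leukocyte markers 10 of 17, of the mesenchyme markers 7 of 12 and of the Schwann cell markers 1 of 4 were called higher too, and the part of these lists was not tested.

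E17.5 beta cells were higher than E15.5 beta cells in Itgb3, Cdh5 and Cdh13, which are known from vessels, and in Itga5 and Itga1. In all 9 genes were called higher and 0 lower, against a background of 11.0% of genes (9.21% higher and 1.74% lower). Itgb3, the partner of Itgav in endothelial cells, was 8.88, 8.05 and 8.08 at E17.5, against 5.90, 4.70, 5.37 and 4.65 at E15.5 (difference 3.18, standard error 0.31, adjusted p = 8.97e-10). All E17.5 arrays were above all E15.5 arrays. Cdh5, Cdh13 (T-cadherin, of vessels), Itga5 and Itga1 (a collagen receptor) rose by 2.88, 2.46, 2.26 and 2.14, and Itga7, Itga8, Cdh11 and Itgb2 by 1.37, 1.39, 1.22 and 1.16. The calls of Cdh11, Itga8 and Itgb2 were each lost without E15.5 replicate 2 or 4 or E17.5 replicate 1, that of Itgb2 without E17.5 replicate 2, that of Itga8 without E17.5 replicate 3 and that of Cdh11 without E15.5 replicate 3. Over this step the endothelial list reached 10.31 ± 0.62 at E17.5, against 6.68 ± 0.53 at E15.5, and the mesenchyme list 12.05 ± 0.28, against 9.95 ± 0.44. The leukocyte list was 8.73 ± 0.02, against 7.34 ± 0.76. Of these lists 12 of 12, 9 of 12 and 11 of 17 markers were called higher. Their part in these results was not tested.

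At P0, 7 genes were higher than at E17.5 and 0 lower, against a background of 6.01% of genes (4.36% higher and 1.65% lower). Cdh6 was 8.12, 9.15 and 8.24 at P0, against 6.88, 6.15 and 6.47 at E17.5 (difference 2.00, standard error 0.33, adjusted p = 6.12e-05), Itgb4 rose by 1.83 and Itgb8 by 1.57, and the arrays of these 3 genes did not overlap. Cdh13, Itgb6, Cdh7 and Itga5 were higher by 1.28, 1.12, 1.09 and 1.00, but the most variable probe of Itgb6 gave -0.18. Itgb6 and Cdh7 had means below 100 at both stages (5.40 and 5.67 at P0), so the sizes of their differences are not exact. The calls of Cdh13, Itgb6, Cdh7 and Itga5 were each lost without E17.5 replicate 2, and those of Cdh7 and Itga5 without P0 replicate 2. The call of Cdh13 was also lost without any other of the 6 arrays but E17.5 replicate 1, and that of Cdh7 without P0 replicate 3. With E17.5 replicate 2 left out 3 genes were called. A fit of these populations alone called 4, and the methods' t-test called 0, with 12 of 43 at an unadjusted p under 0.05. The acinar list was 11.92 at P0, against 9.02 at E17.5, and the duct list 10.39, against 9.62. Of the acinar markers 6 of 11 were called higher, of the duct markers 3 of 6, of the leukocyte markers 4 of 17, of the endothelial markers 2 of 12 and of the mesenchyme markers 1 of 12, and their part was not tested.

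Of the 4 steps between neighbouring beta cell stages, the one to P15 had the most called genes. At P15, 2 genes were higher and 15 lower, 39.5% against a background of 25.0% of genes (6.65% higher and 18.3% lower). Cdh11, the cadherin of mesenchyme, was 4.56, 3.80, 3.66 and 3.70 at P15, against 11.04, 11.30 and 11.32 at P0 (difference -7.29, standard error 0.42, adjusted p = 2.5e-17). Itga1 measured 6.99, 5.05, 5.22 and 6.50 at P15 and 10.70, 11.21 and 11.05 at P0 (difference -5.05, standard error 0.42, adjusted p = 4.83e-13). Itga5 was 7.16, 7.03, 6.26 and 7.43 at P15 and 11.49, 11.67 and 11.35 at P0 (difference -4.53, standard error 0.27, adjusted p = 4.73e-17). The P15 arrays were lower in every case. Cdh13 fell by 4.43, Cdh5 by 4.39, Cdh6 by 4.25, Itga8 (the nephronectin receptor) by 3.98, Cdh19 by 3.44 and Itgb3 by 2.84 on the log2 scale, and Itga9, Itga4, Itgb4, Itgb1, Itgb2 and Itgb6 by between 1.41 and 1.83. All 12 mesenchyme and all 12 endothelial markers were called lower too. The mesenchyme list had array means of 5.72 to 7.65 at P15, against 12.57 to 12.75 at P0, and the endothelial list 5.62 to 7.12, against 11.02 to 11.31. Of the leukocyte markers 14 of 17 were called lower (6.73 to 9.17 at P15, against 9.75 to 10.22 at P0). Of 4 Schwann cell markers 3 were lower (6.29 to 6.88, against 9.29 to 9.68), and of 6 duct markers 3 were lower and 1 higher (8.69 to 9.50, against 10.05 to 10.79). Their part in these results was not tested. Over the 13 means the mesenchyme list correlated with Itga8 at 0.93, with Cdh19 at 0.88, with Itga1 at 0.87 and with Cdh11 at 0.83, and the endothelial list with Cdh5 at 0.97, as a description.

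Cdh7 and Cdh8, 2 type II cadherins of neurons, ran the other way. Cdh7 was 8.77, 9.11, 8.64 and 8.96 at P15, against 5.14, 5.88 and 5.99 at P0 (difference 3.20, standard error 0.26, adjusted p = 2.12e-13). Cdh8 was 7.62, 6.61, 7.04 and 6.30 at P15, against 5.26, 4.74 and 5.20 at P0 (difference 1.82, standard error 0.21, adjusted p = 3.68e-09), and both genes were without overlap. Cdh7 had a mean above 100 only in P15 and adult beta cells, and the step between them missed the threshold (0.42, adjusted p = 0.245). The next population, P0 alpha cells, was 2.47 below (adjusted p = 3.17e-11). The other 2 probes of Cdh7 followed this one at r = 0.90 and 0.95 over the 13 means. Itgb1 was 10.13, 8.62, 8.56 and 8.56 at P15, against 10.31, 10.90 and 10.70 at P0, and the P15 arrays were all lower (difference -1.67, standard error 0.24, adjusted p = 3.05e-07). P15 replicate 1 stood apart from the other 3, nearer the P0 arrays. Cdh1 and Cdh2 were not called (differences 0.14 and 0.62).

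Of the kinases and adaptors that link integrins to actin, 13 of 16 were tested, and 7 were called lower and 0 higher at P15. The background over all genes was 18.3% lower and 6.65% higher. Of 6 repressors of Cdh1, 5 were called lower. One of them, Snai2, was 8.00 at P15 and 10.81 at P0, and another, Zeb2, was 5.64 and 10.35 in the same order. Both genes are known from mesenchyme, the mesenchyme list moved as given above, and its part was not tested.

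Adult beta cells had 10 genes higher and 0 lower than P15 beta cells, against a background of 9.71% of genes (8.22% higher and 1.49% lower). Itgax led, at 10.65, 9.75, 10.27 and 9.80 in adults, against 6.03, 5.17, 4.38 and 5.10 at P15 (difference 4.95, standard error 0.28, adjusted p = 1.45e-16). Itgb2 was 8.17, 7.49, 8.11 and 8.14 in adults and 5.41, 4.24, 4.22 and 4.69 at P15 (difference 3.34, standard error 0.36, adjusted p = 2.36e-09). Neither overlapped. Itgae rose by 2.89, Cdh6 by 2.49, Itga9 by 2.25, Itga5 by 2.04, Itgb6 by 2.02, Itga1 by 1.78, Itga4 by 1.45 and Itgb4 by 1.31. Of the leukocyte markers 16 of 17 were called higher, with array means of 11.11 to 11.96 in adults, against 6.73 to 9.17 at P15. The duct list was 10.57 in adults, against 8.93 at P15, and the acinar list 12.25, against 10.95. Of the duct markers 3 of 6 were called higher and of the acinar markers 0 of 11. The mesenchyme list was 7.81 ± 0.55 in adults, against 6.28 ± 0.92 at P15, with 8 of 12 markers called higher, as were 2 of 4 Schwann cell markers. Their part in these results was not tested.

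With P15 and adult beta cells joined as postnatal and the 3 earlier stages as fetal, 4 genes were higher and 10 lower, 32.6% against a background of 21.1% of genes (6.37% higher and 14.8% lower). This comparison shares its arrays with those of single stages. Cdh11 (-6.19), Itga1 (-3.14), Cdh5 (-3.10) and Cdh13 (-2.78) fell without overlap. Itga8, Itga5, Cdh19, Itgb3, Itgb1 and Cdh6 fell by between 1.56 and 2.32, and the arrays overlapped. Cdh7 (3.82) and Cdh8 (1.78) rose without overlap, and Itgax (3.10) and Itgb8 (1.37) rose with overlap. All 12 endothelial and all 12 mesenchyme markers were called lower, and 7 of 11 acinar and 5 of 17 leukocyte markers higher, and the part of these was not tested.

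**Figure D4:**
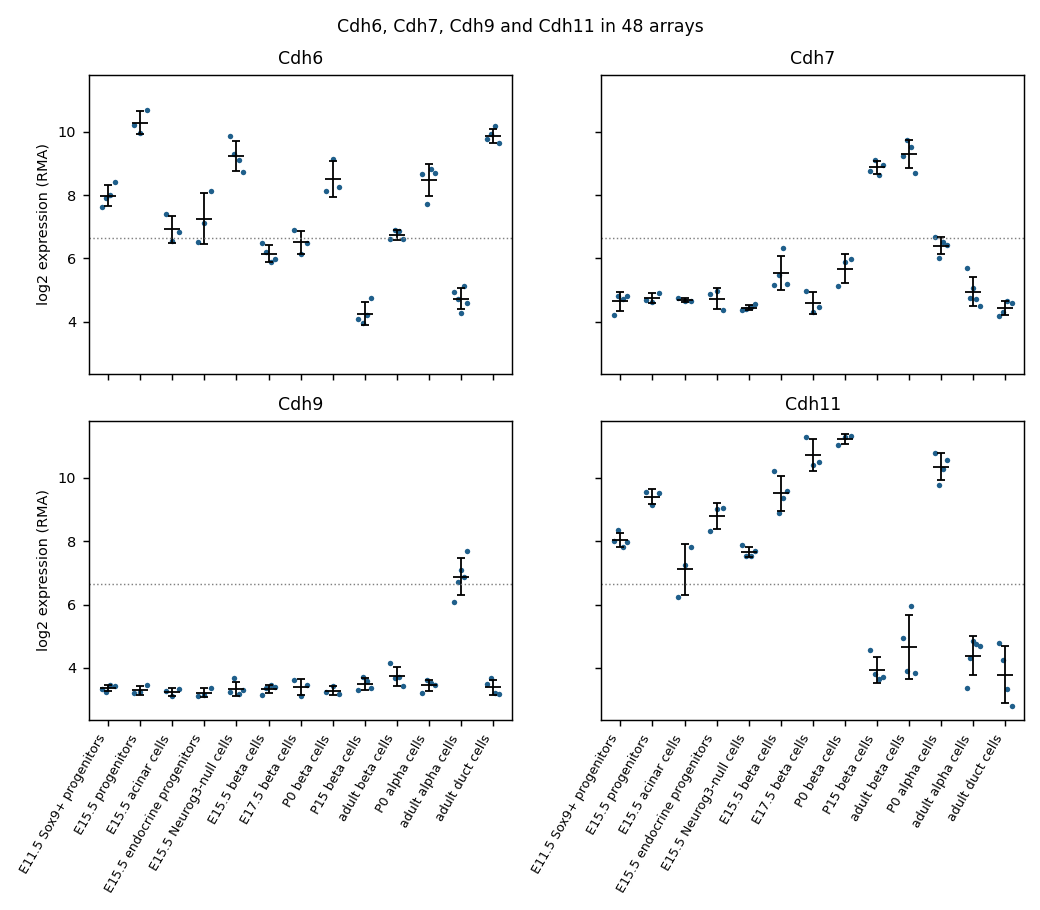
Log2 expression of Cdh6, Cdh7, Cdh9 and Cdh11 in each of the 48 arrays (points), with the mean and SD (black) and a dotted line at 100 on the linear scale. Cdh7 is above the line in P15 and adult beta cells, the mean of Cdh9 in adult alpha cells, and Cdh11 has means between 3.79 and 4.66 in P15 and adult beta cells, adult alpha cells and adult duct cells.

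Adult alpha cells were lower than P0 alpha cells in Itga1, Cdh11, Cdh6, Itga6 and Itgb1, and higher in Cdh9 and Itga10. In adult alpha cells 2 genes were higher and 16 lower, 41.9% against a background of 22.6% of genes (6.87% higher and 15.7% lower). Itga1 was 4.54, 4.17, 4.94, 4.38 and 4.52 in adults, against 11.52, 10.33, 10.68 and 10.84 at P0 (difference -6.33, standard error 0.37, adjusted p = 3.19e-17). Cdh11 measured 3.36, 4.30, 4.83, 4.76 and 4.69 in adults and 10.77, 9.79, 10.28 and 10.56 at P0 (difference -5.96, standard error 0.37, adjusted p = 2.14e-16). The groups did not overlap. Cdh6, Cdh19 and Itga8 fell by 3.75, 3.57 and 3.24. Cdh5, Itga5, Itga9, Itga4, Itgb3, Cdh13, Cdh26, Cdh7 and Itgb8 fell by between 1.14 and 2.70, and the call of Itgb8 was lost without P0 replicate 3 or adult replicate 1. The 12 mesenchyme and 12 endothelial markers were again all called lower, with list means of 5.87 ± 0.12 in adults against 11.07 ± 0.40 at P0 and of 5.56 ± 0.12 against 9.63 ± 0.63. Of the leukocyte markers 11 of 17 were lower (5.75 ± 0.25 in adults against 7.71 ± 0.40 at P0), of the Schwann cell markers 4 of 4 (6.28 ± 0.27 against 9.27 ± 0.29) and of the duct markers 5 of 6 (7.18 ± 0.65 against 9.87 ± 0.36). Their part in these results was not tested.

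The laminin receptor chain Itga6 and the common chain Itgb1 fell too. Itga6 was 9.33, 8.52, 9.14, 9.75 and 9.74 in adult alpha cells, against 12.25, 11.82, 12.15 and 12.20 at P0 (difference -2.81, standard error 0.18, adjusted p = 5.58e-16). In the other 12 populations its means lay between 11.40 and 13.20, and adult alpha cells were 2.10 below the nearest of them, adult beta cells (adjusted p = 1.88e-12). Itgb1 was 8.44, 7.67, 8.35, 8.43 and 8.31 in adults, against 9.98, 9.80, 9.98 and 10.08 at P0 (difference -1.72, standard error 0.21, adjusted p = 1.05e-08). Both were without overlap, and a second probe of each gene followed at r = 0.95 for Itga6 and 0.96 for Itgb1 over the 13 means. Cdh1 was lower by -0.89 (adjusted p = 3.78e-09), under the 2-fold minimum. The 6 pan-epithelial markers averaged 11.40 ± 0.12 in adults, against 12.05 ± 0.09 at P0.

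Cdh9, a type II cadherin of neuronal synapses, had a mean above 100 only in adult alpha cells. It measured 6.07, 6.71, 7.10, 6.87 and 7.68 in adults, against 3.22, 3.61, 3.51 and 3.44 at P0 (difference 3.44, standard error 0.18, adjusted p = 1.69e-18). The other 12 populations had means between 3.21 and 3.74, with no step among them past the threshold. These means lay far below 100 and were ordered by size, so small steps follow in part from that. Only 4 of the 48 arrays exceeded 100, all from adult alpha cells. Cdh9 was therefore tested only through the population where it was high. Its p-values, here and against adult beta cells, are a description, and the sizes are not exact. Itga10, a collagen receptor of cartilage, rose by 1.64, to a mean of 6.55 that stayed under 100.

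At P0, beta cells had 6 genes higher and 1 lower than alpha cells, 16.3%, below the background of 20.1% of genes (13.7% higher and 6.39% lower). Itga5 was 11.49, 11.67 and 11.35 in beta cells, against 10.15, 8.80, 9.20 and 9.33 in alpha cells (difference 2.13, standard error 0.27, adjusted p = 3.61e-08). Cdh13 was higher by 1.70, Itgb2 by 1.45, Cdh5 by 1.44, Itgb4 by 1.32 and Itga3 by 1.05, and Cdh26 was lower by -1.01. The call of Itga3 was lost without beta replicate 1 or 2 and that of Cdh26 without beta replicate 3 or alpha replicate 1 or 2. The leukocyte list ranged over 9.75 to 10.22 in beta cells and 7.27 to 8.24 in alpha cells, the endothelial list averaged 11.13 and 9.63, and the mesenchyme list 12.66 and 11.07, in the same order. Of these lists 16 of 17, 8 of 12 and 8 of 12 markers were called higher, and their part was not tested. Of the 13 integrin adaptors tested, 10 were higher in beta cells and 0 lower.

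Adult beta cells had 14 genes higher and 4 lower than adult alpha cells, 41.9% against a background of 17.6% of genes (12.0% higher and 5.61% lower). Itgax was 10.65, 9.75, 10.27 and 9.80 in beta cells, against 4.89, 4.72, 4.32, 4.85 and 5.86 in alpha cells (difference 5.19, standard error 0.27, adjusted p = 1.14e-18). Cdh7 measured 9.24, 9.74, 9.51 and 8.69 in beta cells and 5.69, 4.76, 5.06, 4.72 and 4.50 in alpha cells (difference 4.34, standard error 0.23, adjusted p = 1.23e-18). Itga9 was 9.78, 9.43, 9.29 and 8.97 in beta cells and 4.55, 6.27, 5.64, 5.67 and 5.85 in alpha cells (difference 3.77, standard error 0.24, adjusted p = 5.55e-16). All 3 genes were without overlap. Itgb2, Itga1, Itgae, Itga4, Itga5, Itga6, Cdh6, Cdh4 (R-cadherin, of retina and brain), Itgb8, Itgb4 and Itgb6 were higher by 3.51, 3.21, 2.76, 2.37, 2.32, 2.10, 2.01, 1.69, 1.58, 1.58 and 1.34. All 17 leukocyte markers were called higher, with array means of 11.11 to 11.96 in beta cells and 5.54 to 6.15 in alpha cells, and their part in the result was not tested. The duct list was 10.57 in beta cells and 7.18 in alpha cells, with 5 of 6 markers called higher, as were 9 of 11 acinar, 7 of 12 mesenchyme and 3 of 12 endothelial markers, and their part was likewise not tested.

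Cdh9 was lower in adult beta cells, at 4.15, 3.69, 3.70 and 3.42, against 6.07, 6.71, 7.10, 6.87 and 7.68 in alpha cells (difference -3.15, standard error 0.18, adjusted p = 2.08e-17). Cdh13 (-1.25), Itgb3 (-1.18) and Itga10 (-1.13) were the other 3, and the call of Itga10 was lost without beta replicate 4 or alpha replicate 2. Cdh13 (4.95 in beta and 6.21 in alpha cells), Itgb3 (5.06 and 6.24) and Itga10 (5.42 and 6.55) had means below 100 in both populations. The sizes of these 3 differences are therefore not exact. Cdh4 had its highest mean of all populations in adult beta cells (9.08 ± 0.45), though the step to P15 beta cells missed the threshold (0.22, adjusted p = 0.573).

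Promoters of the 3 genes that exceeded adult alpha cells most in adult beta cells (Itgax, Cdh7 and Itga9) and of Cdh9, the gene furthest the other way, are printed here from RefSeq (GRCm38.p6), each 300 bases from 250 before to 50 after the start site, on the plus strand. Of the 49 genes 31 had an entry. Capitals mark CACCTG or its reverse complement CAGGTG, the E-box that Snail and Zeb repressors bind in the Cdh1 promoter, searched on both strands.
Itgax (chr7:128129300-128129599): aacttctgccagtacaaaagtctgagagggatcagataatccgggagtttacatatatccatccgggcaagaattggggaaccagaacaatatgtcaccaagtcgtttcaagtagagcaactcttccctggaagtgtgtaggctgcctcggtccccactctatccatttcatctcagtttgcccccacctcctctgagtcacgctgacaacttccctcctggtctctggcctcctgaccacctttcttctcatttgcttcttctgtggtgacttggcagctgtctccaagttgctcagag
Cdh7 (chr1:109982650-109982949, the first of 3 start sites): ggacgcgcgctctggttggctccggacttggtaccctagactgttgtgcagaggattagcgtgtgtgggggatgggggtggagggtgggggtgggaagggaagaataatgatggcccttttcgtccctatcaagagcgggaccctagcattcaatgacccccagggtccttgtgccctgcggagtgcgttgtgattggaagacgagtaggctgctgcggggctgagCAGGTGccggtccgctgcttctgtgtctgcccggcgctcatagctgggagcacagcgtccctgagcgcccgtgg
Itga9 (chr9:118711442-118711741): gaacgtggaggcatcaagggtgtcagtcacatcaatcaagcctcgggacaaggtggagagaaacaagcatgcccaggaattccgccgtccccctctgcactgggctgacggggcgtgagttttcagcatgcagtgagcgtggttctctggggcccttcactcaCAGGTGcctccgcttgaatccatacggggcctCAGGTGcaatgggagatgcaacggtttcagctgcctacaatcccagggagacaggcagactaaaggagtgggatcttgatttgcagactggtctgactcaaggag
Cdh9 (chr15:16728665-16728964): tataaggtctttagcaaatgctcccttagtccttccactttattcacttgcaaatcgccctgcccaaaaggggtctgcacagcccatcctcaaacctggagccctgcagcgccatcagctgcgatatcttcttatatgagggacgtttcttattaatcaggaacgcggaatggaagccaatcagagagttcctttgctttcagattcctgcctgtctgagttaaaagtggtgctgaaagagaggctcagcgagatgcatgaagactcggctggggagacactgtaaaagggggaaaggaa
The letters occurred at -24 in Cdh7 and at -87 and -55 in Itga9, and not in the Itgax and Cdh9 windows. Of all 32851 RefSeq promoters given, 20.2% held them, and of the 35 promoters of these gene families 8 (22.9%), so a match here is common and is a description of the letters only.

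The difference between the courses of alpha and beta cells was tested directly, as adult minus P0 in alpha cells minus the same in beta cells. Here 5 genes had a positive and 9 a negative difference, 32.6% against a background of 23.4% of genes (11.6% higher and 11.8% lower). Cdh7 changed by -1.46 in alpha cells and by 3.62 in beta cells (difference -5.08, standard error 0.34, adjusted p = 3.27e-14). Itgax changed by 0.41 in alpha cells and by 5.20 in beta cells (difference -4.79, adjusted p = 1.49e-11). Both genes had means below 100 in P0 alpha, adult alpha and P0 beta cells, so these sizes are not exact. Itga9, Itga1, Itgae, Itgb2, Itga6, Cdh6 and Itga4 had differences between -3.07 and -1.49. Itga6 fell by 2.81 in alpha cells and by 0.81 in beta cells (difference -2.00, standard error 0.27, adjusted p = 4.07e-07). On the other side, Cdh9 (2.98), Cdh13 (2.95), Cdh5 (1.77), Itgb3 (1.77) and Itga10 (1.5) had the positive differences. Of the called genes only Itga6 and Itga4 had means above 100 in all populations compared, and Itga10 was below 100 in all. The sizes of the other called differences are therefore not exact. Cdh11 fell in both cell types, by 5.96 in alpha cells and by 6.56 in beta cells, and its difference was not called. Of the 17 leukocyte markers 16 had a negative difference past the threshold, as did 5 of 6 duct markers and 3 of 12 mesenchyme markers, while 6 of 12 endothelial and 4 of 12 mesenchyme markers had a positive one, and their part in the result was not tested.

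**Figure D5:**
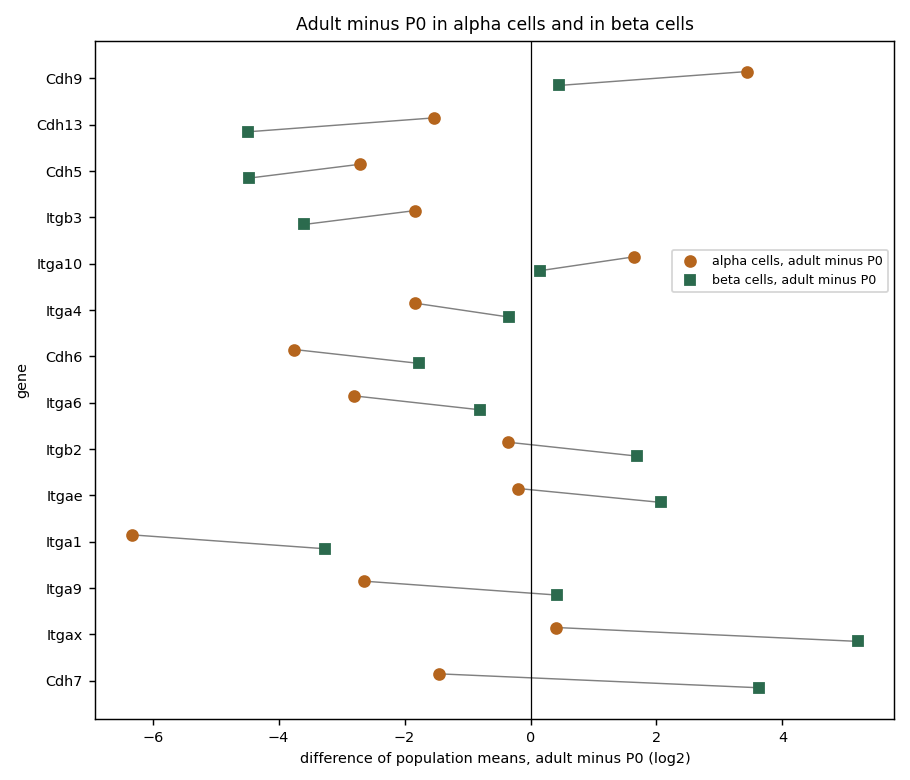
Adult minus P0 difference of population means (log2) in alpha cells (circles, upper of each pair) and beta cells (squares, lower) for the 14 genes whose difference between the cell types was called, ordered by that difference. Cdh7 and Itga9 fall in alpha cells and do not in beta cells, and Cdh9 changes by 3.44 in alpha cells and by 0.46 in beta cells.

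Adult duct cells were set against E15.5 progenitors and against adult beta cells. The 2 comparisons share the duct arrays. Against E15.5 progenitors 9 genes were higher and 5 lower in duct cells, 32.6%, under the background of 34.7% of genes (15.1% higher and 19.6% lower). Cdh11 was 4.79, 4.25, 3.32 and 2.79 in duct cells and 9.55, 9.13 and 9.53 in progenitors (difference -5.62, standard error 0.42, adjusted p = 2.19e-14), and Cdh3 was lower by -1.74, Itgb1bp2 by -1.50, Itgb3bp by -1.81 and Cdh8 by -1.30. Itgb2 (4.34), Itga9 (2.74), Itga4 (2.55), Itgax (2.13), Itgb8 (2.13), Cdh13 (2.08), Itga5 (2.00), Itga1 (1.64) and Itga3 (1.56) were higher. Cdh6, Itgb4, Itgb6 and Cdh16 were not called, with differences of -0.41, 0.54, 0.80 and -0.93. The 17 leukocyte markers were all called higher in duct cells, as were 9 of 12 endothelial markers. Acinar enzymes were bright in duct cells, as Prss2 at 14.52. The part of these markers was not tested.

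Against adult beta cells duct cells had 11 genes higher and 7 lower, 41.9% against a background of 32.7% of genes (15.7% higher and 17.1% lower). The 2 populations had like means of the leukocyte list, 11.74 ± 0.57 in duct cells and 11.52 ± 0.35 in beta cells, but single markers differed, with Cd14 (3.11) and Adgre1 (1.46) higher in duct cells and Cd52 (-2.27) lower. Of the endothelial markers 6 of 12 and of the duct markers 5 of 6 were higher in duct cells. Mesenchyme markers went both ways, with Col1a1 lower (-3.64) and Postn higher (2.04). Of the acinar markers Ptf1a (1.40) and Rbpjl (1.18) were higher and Bhlha15 (-2.38) lower. The acinar enzyme Prss2 was 14.52 in duct and 14.12 in beta cells. The part of these lists was not tested. Cdh7 was 4.19, 4.31, 4.65 and 4.58 in duct cells and 9.24, 9.74, 9.51 and 8.69 in beta cells (difference -4.86, standard error 0.24, adjusted p = 2.71e-20). Cdh2 was 6.95, 7.69, 7.96 and 6.24 in duct cells and 11.90, 11.57, 11.54 and 11.63 in beta cells (difference -4.45, standard error 0.24, adjusted p = 5.06e-19). Itgax was lower in duct cells by -3.62, Cdh8 by -2.37, Cdh22 by -1.51, Cdh4 by -1.50 and Itga8 by -1.06. None of these groups overlapped.

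The 11 genes that were higher in duct cells held both integrin chains and cadherins. Itga5 was 12.38, 11.99, 12.11 and 12.25 in duct cells, against 9.63, 8.94, 8.99 and 8.47 in beta cells (difference 3.18, standard error 0.25, adjusted p = 4.41e-14). Cdh6 was 9.76, 9.92, 10.17 and 9.63 in duct cells, against 6.62, 6.88, 6.85 and 6.60 in beta cells (difference 3.13, standard error 0.28, adjusted p = 2.44e-12). Itgb6 (2.24), Cdh13 (2.15), Itgb4 (2.10), Itgb8 (2.04), Itga9 (1.98), Itga1 (1.56), Itgb1 (1.5), Cdh16 (1.32) and Itga3 (1.07) were higher as well, all without overlap. Itgb8 and Itga9 had their highest means of the 13 populations in duct cells, 1.72 and 1.98 above the next. The calls of Itga8 (without beta replicate 1 or 2 or duct replicate 2), Cdh16 (without duct replicate 3) and Itga3 (without duct replicate 4) depended on single arrays.

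Several of the genes lie side by side on their chromosomes, with no other protein-coding gene between them. Cdh11 and Cdh5 on chromosome 8 had r = 0.58 over the 13 means and Itga2 and Itga1 on chromosome 13 had r = 0.52. Cdh8 and Cdh11 on chromosome 8 had r = -0.45, Cdh6 and Cdh9 on chromosome 15 had r = -0.48, Cdh7 and Cdh19 on chromosome 1 had r = 0.13, and Cdh3 and Cdh1 on chromosome 8 had r = 0.38. These are descriptions over 13 points that share arrays.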

How the data were processed

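Expression was measured on Affymetrix mouse genome expression arrays, and the deposited values were log2 expression values that the authors made with RMA in R 2.11.1. Whether all arrays were summarised in 1 run is not given in the sources used here. Of 45101 probe sets 34958 named 1 gene in the platform annotation, 932 several and 9211 none, and only the first kind named a gene. Probes above 100 on the linear scale (log2 6.64) in at least 1 of the 48 arrays were kept (32078). Population means were fitted with limma 3.58.1 in R 4.3.3, with empirical Bayes variances (35 residual and 3.55 prior degrees of freedom) and Benjamini-Hochberg adjustment over all 32078 probes. A call needed an adjusted p under 0.05 and a log2 difference of at least 1. The depth of arrays is not a count, so their number limits the precision, and as each array is a pool, p-values measure only the spread between these arrays. The script was tested on simulated data.

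Stages follow the labels, although the study's text calls the P0 cells P1 and the titles of the null samples read E1.5 where their stage field reads E15.5. The gene families and marker lists were chosen with earlier results of these data known. The text names every called gene of each comparison, the markers Cdh1 and Cdh2, and genes picked by range. Replicate numbers are shared between groups. Deviations correlated above 0.1 in every pair only between E15.5 and E11.5 progenitors (0.106 to 0.148). Those cells came from different embryos and transgenes, so a shared number there does not mean a shared pool. Between endocrine progenitors and progenitors of E15.5, both from Neurog3-eGFP pancreas, the pairs gave 0.052 to 0.302. Whether arrays with the same number shared a pool is not given, and the main fit treated all arrays as independent. Blocking on the number for E15.5 against E11.5 progenitors gave 3888 called probes and leaving it out gave 3820. In a fit of those populations alone the counts were 10 against 10 of the 43 genes. Alternatives were leaving out each array, the replicate block, fits of the compared populations alone, another probe per gene, other filters, quantile normalization, no minimum difference and the t-test of the study's methods with Benjamini-Hochberg adjustment.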

Additional observations from a re-analysis of the deposited data

Results flagged for a closer look

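A single array stood apart from the rest of its population in 8 of 120 groups of 4 or 5 arrays, where chance sets 1 array apart in about 1 of 20 groups (Dixon's gap test). Itgb1 gave 3 of them. P15 beta replicate 1 measured 10.13, against 8.56 to 8.62 in the other arrays, adult alpha replicate 2 measured 7.67, against 8.31 to 8.44, and adult duct replicate 4 measured 9.74, against 10.25 to 10.31. Cdh11 was 4.56 in P15 beta replicate 1, with the others at 3.66 to 3.80. Itga6 was 10.88 in adult beta replicate 1, with the others at 11.54 to 11.60, and Itgb8 was 7.70 in adult beta replicate 3, with the others at 8.11 to 8.14. Cdh1 was 12.58 in adult alpha replicate 1, with the others at 12.05 to 12.16. Cdh6 was 7.71 in P0 alpha replicate 2, with the others at 8.68 to 8.82. None of the calls these arrays enter for their own gene was lost when that array was left out.

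The change between P0 and adulthood differed between alpha and beta cells, by a test of the difference itself, in 14 genes. Written as the change in alpha cells minus that in beta cells, it was -5.08 for Cdh7, -4.79 for Itgax, -3.07 for Itga9, -3.07 for Itga1, -2.27 for Itgae, -2.05 for Itgb2, -2.00 for Itga6, -1.98 for Cdh6 and -1.49 for Itga4. On the positive side it was 2.98 for Cdh9, 2.95 for Cdh13, 1.77 for Cdh5, 1.77 for Itgb3 and 1.5 for Itga10. Only Itga6 and Itga4 had means above 100 in all populations compared, so the other sizes are not exact. The leukocyte marker list ranged over 5.54 to 6.15 in adult and 7.27 to 8.24 in P0 alpha cells, and over 11.11 to 11.96 in adult and 9.75 to 10.22 in P0 beta cells, and its part was not tested.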

How the results depend on the processing

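Leaving out 1 array at a time gave 8 to 11 genes for E15.5 against E11.5 progenitors, 7 to 14 for acinar cells, 11 to 14 for endocrine progenitors and 14 to 16 for duct cells, each against E15.5 progenitors. It gave 17 to 19 for Neurog3-null cells and 5 to 9 for E15.5 beta cells against endocrine progenitors. For beta cell stages it gave 7 to 11 at E17.5, 3 to 9 at P0, 17 to 18 at P15, 10 to 11 in adults and 14 to 15 for postnatal against fetal. It gave 17 to 20 for adult against P0 alpha cells, 7 to 10 for P0 beta against P0 alpha cells, 18 to 19 for adult beta against adult alpha cells, 17 to 19 for duct against adult beta cells and 14 to 16 for the difference between alpha and beta courses. The weakest count was that of P0 against E17.5 beta cells. Its 7 became 3 without E17.5 replicate 2, 4 without P0 replicate 2, 4 in a fit of those populations alone, and 0 with the replicate block or the methods' t-test, where 15 and 12 of 43 genes had an unadjusted p under 0.05. The replicate block also gave 3 for E15.5 beta cells against endocrine progenitors, and changed no other count by over 1.5 times. The t-test gave 3 there and 5 for acinar cells. A filter of 100 in at least 24 arrays, which tests fewer genes by construction, gave 5 for E15.5 against E11.5 progenitors, 4 for acinar cells, 7 for endocrine progenitors and 8 for duct cells against E15.5 progenitors, 8 for null and 2 for E15.5 beta cells against endocrine progenitors, 3, 4, 8 and 6 for the beta cell stages E17.5, P0, P15 and adult, 6 for postnatal cells, 9 for adult alpha cells, 3 and 9 for beta against alpha cells at P0 and in adults, 10 for duct against adult beta cells and 5 for the course difference. With no minimum difference the counts over 1.5 times higher were 17 for E15.5 against E11.5 progenitors, 16 for acinar cells, 13 and 15 for E15.5 and E17.5 beta cells, 26 at P15, 26 for postnatal cells, 22 and 28 for beta against alpha cells at P0 and in adults, and 22 for duct cells against E15.5 progenitors. One direction reversed. Itgb6 at P0 against E17.5 was -0.18 with the most variable probe of the gene, and the cause was not tested. Of 202 single calls, those no longer past the threshold numbered 15 with the replicate block, 6 without it in the same small fits, 4 with quantile normalization, 3 with the most variable probe and 0 with no filter. The t-test lost 25 of 188, and leaving out 1 array lost 58 of 1764.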
